A study of Mus musculus with 9 samples.

Results

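The nuclear-encoded genes of the mitochondrial respiratory chain and ATP synthase were followed in whole mouse lung. The genes were taken by name: every non-control probe whose RefSeq transcript belongs to a gene with a symbol that begins with Nduf, Uqcr, Cox4, Cox5, Cox6, Cox7, Cox8 or Atp5, or to Sdha, Sdhb, Sdhc or Sdhd. The genes described number 91 of 22911 named genes, with 113 of 56605 distinct probes, and the rule used no measured value. Of the 91 genes, 90 had a probe well above background on all 3 arrays of at least 1 group and were tested among 16842 genes. The remaining gene was Cox8c, an isoform of cytochrome c oxidase subunit 8 known from testis, whose probe was well above background on 0 of 9 arrays.

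Total RNA from 9 whole lungs was labelled with Cy3 and hybridised to one-colour Agilent arrays, 3 biological replicates per group. All mice were TRF1flox/flox, the controls included, and all were given weekly tamoxifen at 250 mg per kg from 8 weeks of age. The controls carried no cre; their treatment lasted 9 months, and they were 11 months old. SPC-creTRF1flox/flox mice were treated for 3 months (age 5 months) or for 9 months (age 11 months); they are called 3-month and 9-month cre lungs here. SPC is the promoter of surfactant protein C, active in alveolar type 2 cells, while the RNA came from all cells of the lung. TRF1 (gene symbol Terf1) is a shelterin protein that binds telomeric repeats. No control lung was taken at 3 months. For 3-month cre against control, age and the length of tamoxifen treatment therefore cannot be told apart from the effect of cre. Both groups carried cre in 9-month against 3-month cre lungs, where age cannot be told apart from the length of treatment.

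The respiratory chain is a row of protein complexes in the inner mitochondrial membrane. Complex I (NADH dehydrogenase, the Nduf genes) and complex II (succinate dehydrogenase, the Sdh genes) pass electrons to ubiquinone, complex III (the Uqcr genes) passes them to cytochrome c, and complex IV (cytochrome c oxidase, the Cox genes) passes them to oxygen. The proton gradient this builds drives ATP synthase, the complex encoded by the Atp5 genes. The catalytic subunits of complex IV and several subunits of complexes I, III and ATP synthase are encoded in mitochondrial DNA and are not among these genes. In lung, type 2 cells are known for a high content of mitochondria, which support surfactant production. Several complex IV subunits exist as a general isoform and an isoform restricted to heart and skeletal muscle, testis or other tissues.

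Levels are log2 processed signals minus the 75th percentile of the same array, so a level of 0 equals that percentile; levels of different probes are not compared. The 75th percentile lay between 958 and 1430 signal units, and 62.7% to 72.4% of probes were well above background. The arrays came from 2 slides by their file headers: the 3 control arrays lay on slide 1 with replicate 1 of the 3-month cre lungs, whereas slide 2 carried replicates 2 and 3 of that group and the whole 9-month cre group. Controls and 9-month cre lungs therefore shared no slide, and a fit with slide as a term links them only through 3-month cre replicate 1, the one cre lung of slide 1. By Xist and 4 Y-linked genes all 3 controls were male, whereas 1 of 3 lungs in each cre group was. Terf1 itself had levels of -0.37, -0.05 and 0.20 in the controls, -0.58, -0.68 and -0.62 in the 3-month and -0.41, -0.97 and -0.39 in the 9-month cre lungs, with the cre lungs all below the controls. Sftpc, which encodes surfactant protein C, lay between 7.89 and 8.60 on all 9 arrays.

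In the 9-month cre lungs the respiratory chain genes stayed close to the controls. By limma's moderated test with Benjamini-Hochberg adjustment, 0 of 90 genes passed an adjusted p of 0.05, whereas 6.45% of all genes tested did (3.65% higher, 2.81% lower). At an unadjusted p under 0.05 by limma, 11 were higher and 1 lower, beside 27.3% of all genes in both directions. The differences were small: their median size was 0.14 on the log2 scale against 0.25 over all genes, and 3 of 90 exceeded 0.5. All 3 cre arrays lay above all 3 control arrays for 25 genes and below them for 5, which is 30 of 90 genes beside 32.5% of all genes (17.5% above, 15.0% below). With slide as a block, 0 of all 16842 genes passed in any of the 3 comparisons by limma; for 9-month cre against control 837 of all genes and 1 of the 90 reached an unadjusted p under 0.05.

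In the 3-month cre lungs, 0 of 90 genes passed against the same controls, beside 0.451% of all genes (0.368% higher, 0.0831% lower). At an unadjusted p under 0.05, 6 were higher and 3 lower by limma, beside 18.7% of all genes. Groups did not overlap for 20 genes higher and 3 lower, beside 31.0% of all genes (19.6% and 11.4%). Between the 9-month and 3-month cre lungs 0 of 90 genes passed limma's test; 4.99% of all genes did, 3.20% lower and 1.79% higher at 9 months. At an unadjusted p under 0.05, 4 were higher and 8 lower by limma, beside 28.7% of all genes. Groups did not overlap for 11 genes higher and 18 lower at 9 months, beside 33.6% of all genes (14.6% and 19.0%).

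The median log2 difference of the 90 genes was 0.08 for 9-month cre minus control and 0.13 for 3-month cre minus control, beside 0.02 and 0.05 over all genes. The sign of these medians was not kept by every scaling: after quantile normalization they were -0.061 and 0.005, and in the authors' deposited table of processed values -0.039 and -0.018 (all genes, -0.03 and 0.01, then -0.02 and 0.00). Accordingly, 69 of 90 genes lay above 0 at 3 months with the 75th percentile (76.7%, beside 57.6% of all genes), but 48 after quantile normalization and 42 in the deposited table. At 9 months 61 lay above 0, beside 52.8% of all genes, but 34 and 39 under the same alternatives. A shift of the whole group is therefore not given as a result. For 9-month minus 3-month cre lungs the median was -0.02, beside -0.03 over all genes, with 42 of 90 above 0 (46.9% of all genes were) and a median of 0.04 in the deposited table.

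**Figure D1:**
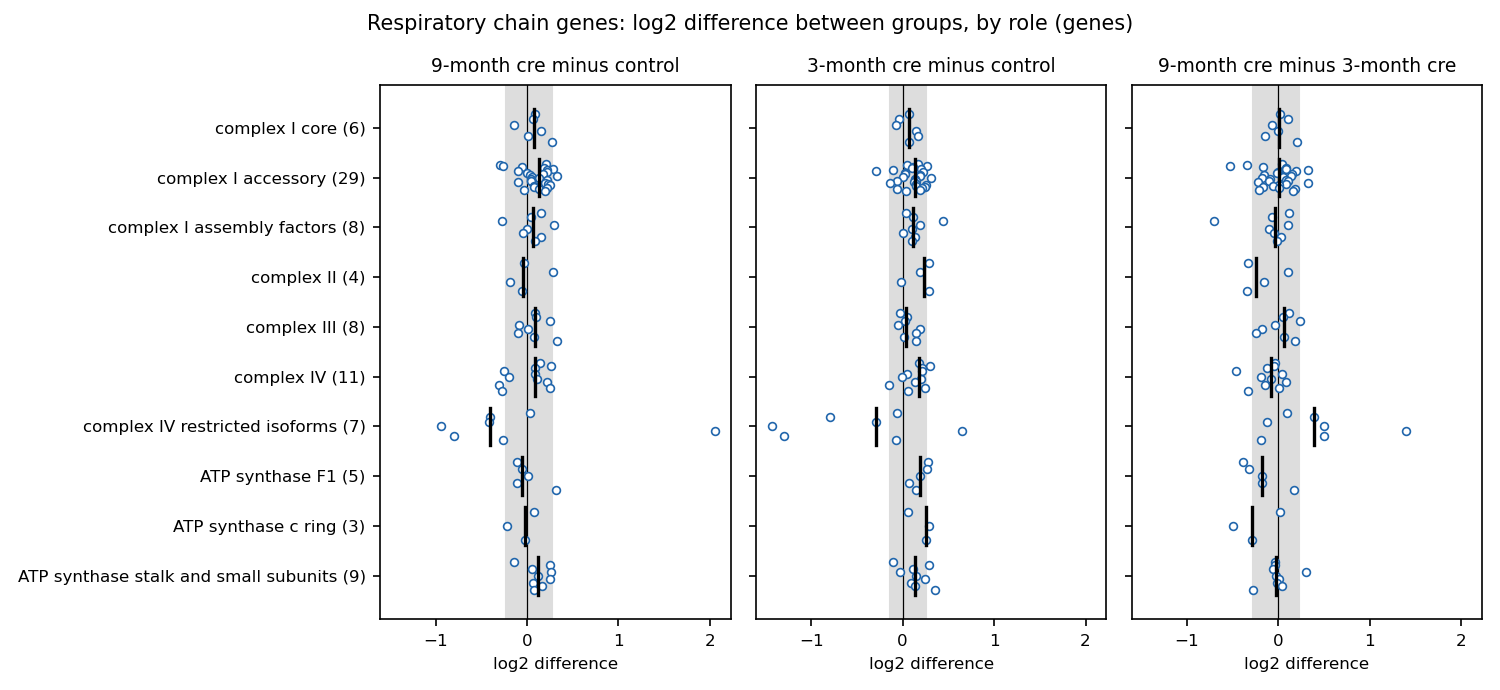
Log2 difference of each of the 90 genes (points) for the 3 comparisons, by role; black bars are medians, and the grey band holds the middle 50% of all 16842 genes. Most points lie inside or near the grey band; the restricted isoforms of complex IV spread from -1.43 to 2.05.

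Single arrays shifted the genes together by little. The median of the 90 genes, each centred on its own mean over 9 arrays, was -0.14, -0.11 and 0.04 in the controls, 0.04, 0.10 and -0.01 in the 3-month and 0.005, 0.02 and 0.001 in the 9-month cre lungs. Control replicates 1 and 2 were the lowest, with 11 and 16 of 90 genes above their own mean, and 3-month cre replicate 2 the highest, with 76. Control replicate 3 lay among the cre lungs with 58. The controls thus differed from each other by more than the cre groups differed in their medians. The genes were steady within groups: the median SD over replicates was 0.12, against 0.21 for all genes tested. Of the 90 genes, 61 ranged over less than 0.5 log2 units across all 9 arrays and 5 over more than 1.

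**Figure D2:**
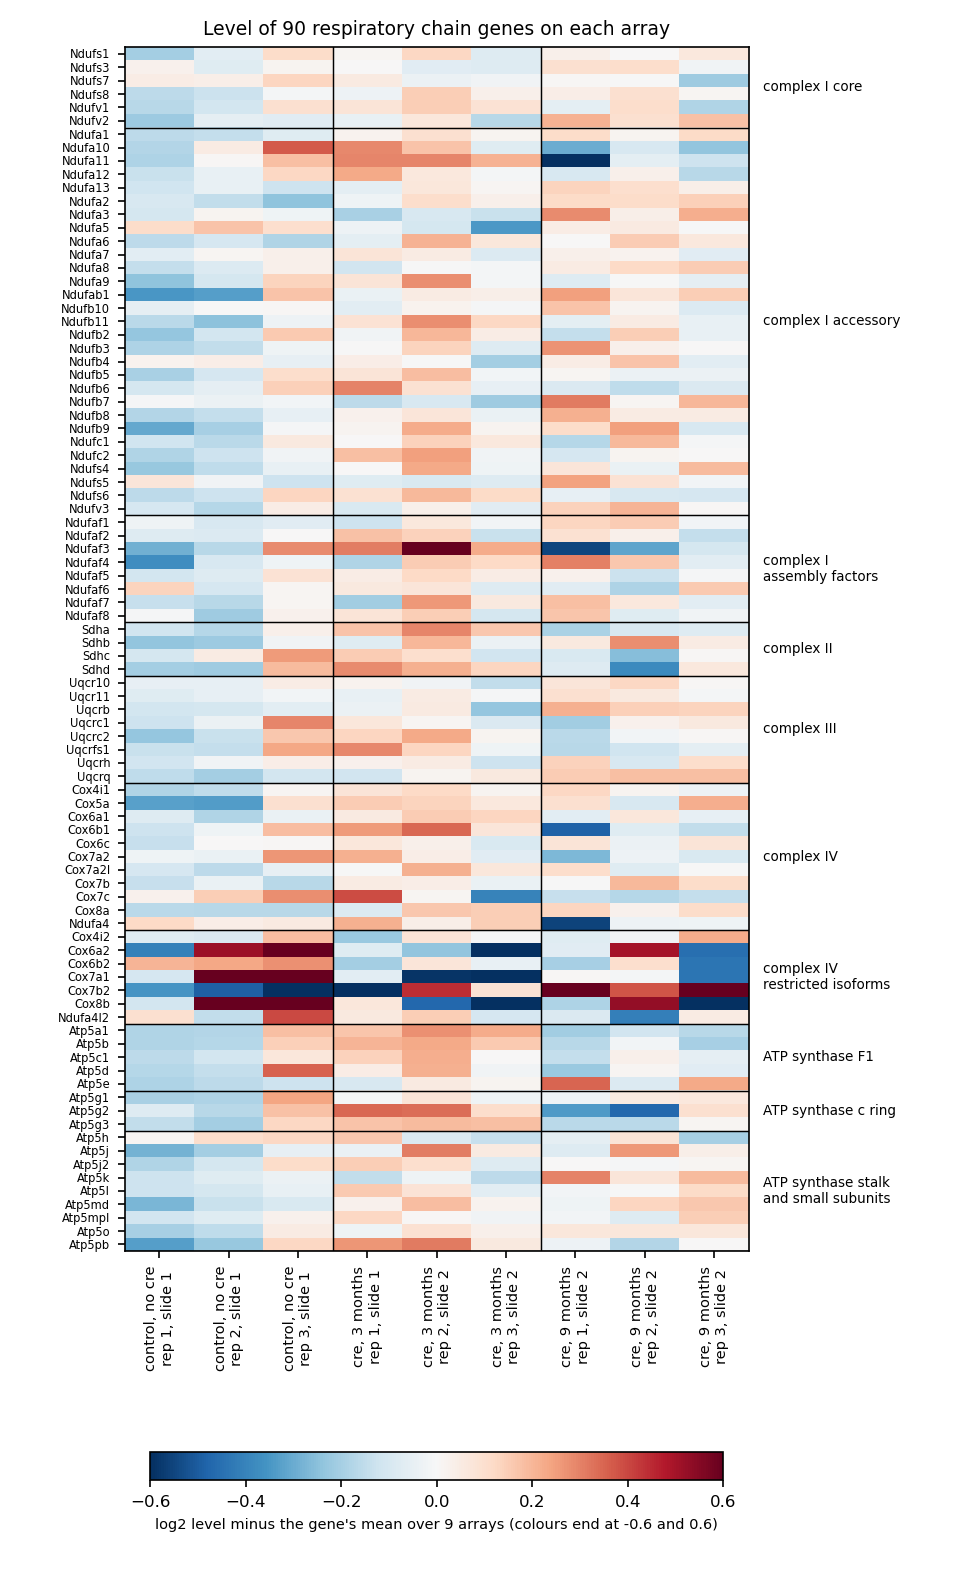
Level of each of the 90 genes on each array as a log2 difference from the gene's mean over 9 arrays, in the order of their roles; columns are arrays with group, replicate and slide. Columns of control replicates 1 and 2 are mostly blue, and the strongest colours belong to Ndufaf3 and the restricted isoforms Cox6a2, Cox7a1, Cox7b2 and Cox8b.

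Complex I was represented by 35 subunits and 8 assembly factors, of which 0 passed a test by limma; at an unadjusted p under 0.05 the 3 comparisons held 3, 2 and 3 subunits and 0, 1 and 1 assembly factors, beside 27.3%, 18.7% and 28.7% of all genes. The core subunits carry the flavin and iron-sulphur clusters and the quinone site. Ndufv2, an iron-sulphur protein of the NADH-binding module, had levels of 3.81, 3.98 and 3.96 in the controls and 4.24, 4.12 and 4.20 in the 9-month cre lungs, groups that did not overlap (difference 0.27 ± 0.10, SE, as for all differences given with an error; limma, adjusted p = 0.14). The other core subunits described had 9-month values between -0.14 and 0.15 against control.

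The 29 accessory subunits surround the core and are needed for its assembly and stability. Their 9-month differences ran from -0.29 for Ndufa10 to 0.33 for Ndufab1, the mitochondrial acyl carrier protein, with a median of 0.13; 23 of 29 were above 0, against 14 after quantile normalization. Ndufa2 had levels of 4.77, 4.72 and 4.63 in the controls, 4.84, 4.98 and 4.90 in the 3-month and 4.99, 4.98 and 5.01 in the 9-month cre lungs. The controls lay below all 6 cre lungs, with a 9-month difference of 0.28 ± 0.09 (limma, adjusted p = 0.095). Ndufa11, a membrane-arm subunit, had the lowest 9-month minus 3-month value of the accessory subunits, -0.53 ± 0.16 (limma, adjusted p = 0.082), and Ndufb7 the highest, 0.33 ± 0.10 (limma, adjusted p = 0.0886). Ndufa1 and Ndufb11, together with the complex IV subunit Cox7b, lie on the X chromosome; their 9-month values were 0.20, 0.13 and 0.22, in a comparison of male controls with a group of both sexes.

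The 8 complex I assembly factors with Nduf names build the complex and leave it. Ndufaf3 had levels of -0.17, -0.06 and 0.40 in the controls, 0.42, 0.73 and 0.34 in the 3-month and -0.44, -0.20 and 0.00 in the 9-month cre lungs. It was lower on every 9-month than on every 3-month array, and the controls overlapped both groups (9-month minus 3-month -0.71 ± 0.19, limma adjusted p = 0.063, and 0.0435 without control replicate 3). Controls enter this comparison only through the shared estimate of the spread, so leaving out that control left the difference at -0.71. Ndufaf4 had the highest 9-month value against control, 0.30 ± 0.15 (limma, adjusted p = 0.24). The other 6 factors had 9-month minus 3-month values between -0.10 and 0.11.

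Markers of alveolar type 2 cells moved in the same comparison: 3 of 12 fell from 3 to 9 months and 0 rose by limma, with a median of -0.63. Of all genes, 3.20% fell and 1.79% rose. Their mean log2 level was 4.86, 4.50 and 5.13 in the controls, 5.02, 5.27 and 5.20 in the 3-month and 4.78, 4.42 and 4.37 in the 9-month cre lungs. Their summed linear level, in multiples of the 75th percentile, ranged from 601 to 719, from 673 to 890.4 and from 674 to 875. Of 12 alveolar macrophage markers 1 fell in that comparison, and their summed level ranged from 199 to 316 in the 9-month and from 269.7 to 310.4 in the 3-month cre lungs. The part of these cells in the Ndufaf3 values was not tested; in whole-lung RNA fewer cells of a type and less RNA per cell cannot be told apart.

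**Figure D3:**
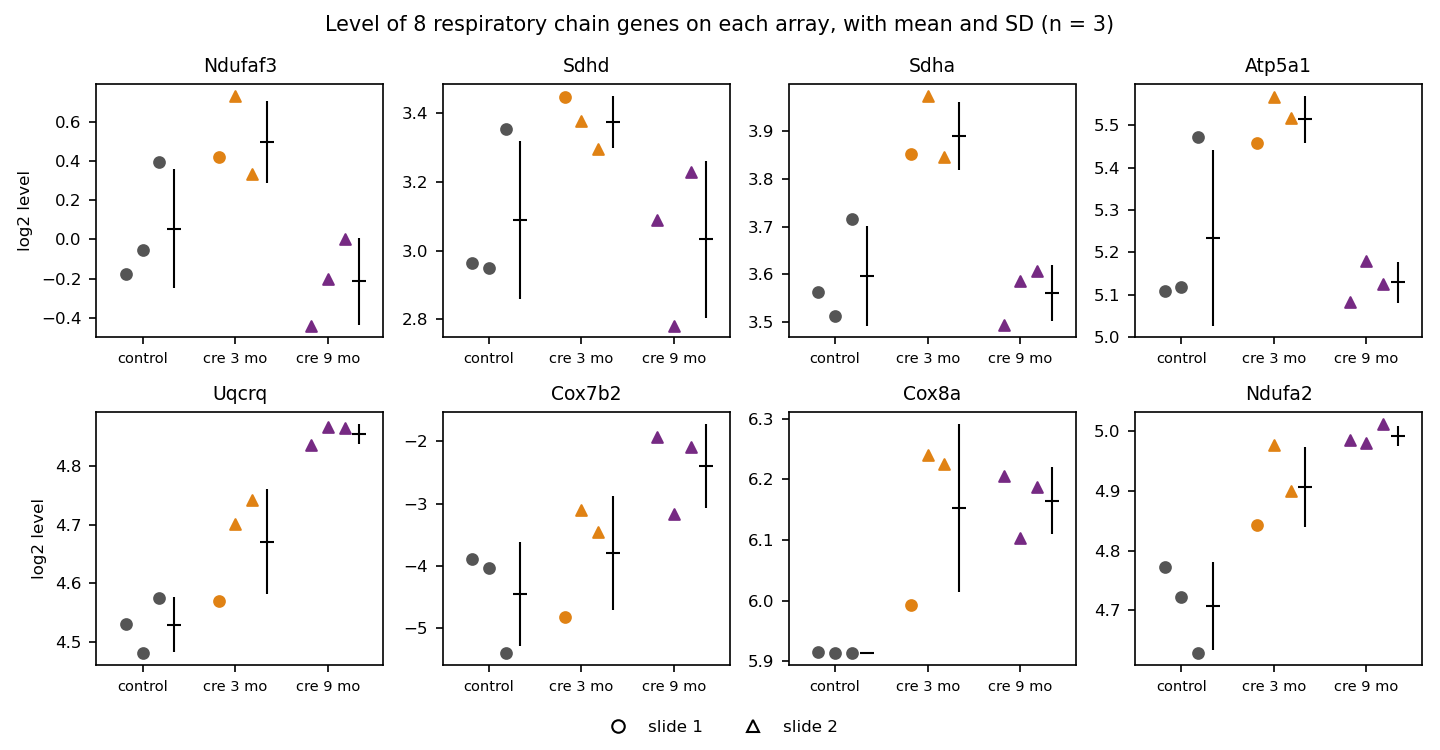
Log2 level of 8 respiratory chain genes on each array (points; circles slide 1, triangles slide 2), with group mean and SD (bars, n = 3) beside the points; each panel has its own scale. Ndufaf3, Sdhd, Sdha and Atp5a1 are higher on every 3-month than on every 9-month cre array, while Uqcrq, Cox7b2 and Cox8a separate the arrays of slide 1 from those of slide 2.

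Complex II oxidises succinate and belongs to the citric acid cycle as well. Sdha, the flavoprotein, had levels of 3.56, 3.51 and 3.72 in the controls, 3.85, 3.97 and 3.84 in the 3-month and 3.49, 3.58 and 3.61 in the 9-month cre lungs. All 3 of the 3-month arrays lay above the other 6 (0.29 ± 0.10 against control, limma adjusted p = 0.18; -0.33 ± 0.10 for 9-month minus 3-month, limma adjusted p = 0.079). Sdhd, a membrane anchor, gave 2.96, 2.95 and 3.36 in the controls, 3.45, 3.38 and 3.30 at 3 months and 3.09, 2.78 and 3.23 at 9 months. Its 9-month arrays all lay below its 3-month arrays (-0.34 ± 0.16; limma, adjusted p = 0.19). Sdhc, the other anchor, had 9-month values of -0.18 against control and -0.16 against 3 months. Sdhb, the iron-sulphur subunit, was at 4.36, 4.38 and 4.57 in the controls and 4.66, 4.87 and 4.65 in the 9-month cre lungs (0.29 ± 0.12; limma, adjusted p = 0.17). Sdhb alone of the 4 subunits had a 9-month value above 0 against control by its brightest probe. The dimmer Sdhb probe, fitted on its own, gave -0.42 ± 0.27 against control (limma, adjusted p = 0.37), so the direction depends on the probe.

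Complex III was represented by 8 genes, of which 0 passed limma's test. In the 3 comparisons 2, 0 and 0 reached an unadjusted p under 0.05, beside 27.3%, 18.7% and 28.7% of all genes. Uqcrq, a small subunit that binds next to cytochrome b, was at 4.53, 4.48 and 4.58 in the controls, 4.57, 4.70 and 4.74 in the 3-month and 4.84, 4.87 and 4.86 in the 9-month cre lungs. The 9-month arrays lay above all others, and the single 3-month array of slide 1 lay among the controls. The 9-month difference from control was 0.33 ± 0.09 (limma, adjusted p = 0.070), which is among the 2 smallest adjusted p-values of the chain in that comparison. Its 3-month difference was 0.14 with the 75th percentile and -0.11 in the authors' deposited table of processed values, so its direction depends on the values used. Uqcrb, which faces the matrix, had a 9-month value of 0.26 ± 0.10 (limma, adjusted p = 0.15). The core proteins Uqcrc1 and Uqcrc2 had -0.08 and 0.01, and the Rieske iron-sulphur protein Uqcrfs1 had the lowest value, -0.10.

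The general subunits of complex IV, 11 genes, had 9-month values between -0.30 and 0.26 against control. Cox4i1, the regulatory subunit that binds ATP, was at 5.39, 5.42 and 5.58 in the controls and 5.69, 5.58 and 5.54 in the 9-month cre lungs, with overlap (0.14 ± 0.10; limma, adjusted p = 0.38). Cox8a was at 5.92, 5.91 and 5.91 in the controls, 5.99, 6.24 and 6.22 in the 3-month and 6.21, 6.10 and 6.19 in the 9-month cre lungs. The step lay between slides: 4 arrays of slide 1 were between 5.91 and 5.99, and 5 of slide 2 between 6.10 and 6.24 (9-month difference 0.25 ± 0.10; limma, adjusted p = 0.16). Cox6b1 had 1.12, 1.22 and 1.43 in the controls, 1.50, 1.59 and 1.32 at 3 months and 0.76, 1.17 and 1.10 at 9 months, so the cre groups did not overlap (-0.46 ± 0.15; limma, adjusted p = 0.089). Ndufa4, first described with complex I and now counted to complex IV, was at 4.09, 4.01 and 4.03 in the controls and 3.42, 3.94 and 3.95 in the 9-month cre lungs, where replicate 1 stood below the rest (-0.27 ± 0.15; limma, adjusted p = 0.28).

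A separation by slide was seen in 12 of the 90 genes, which is 13.3% beside 9.96% of all genes measured on every array. Of the 12, 10 were higher on slide 2: Ndufa2, Ndufa6, Ndufa13, Ndufs8, Ndufaf1, Uqcrq, Uqcr11, Cox8a, Cox7b2 and Atp5e. Ndufs7 and Cox7c were lower there. With slide as a block the 9-month differences from control were 0.17 ± 0.16 for Uqcrq, 0.01 ± 0.16 for Cox8a, 0.50 ± 0.85 for Cox7b2, 0.19 ± 0.17 for Ndufa2 and 0.19 ± 0.23 for Atp5e, each smaller than without it and none past the test. Cox7c turned from -0.30 to 0.28 ± 0.24, so its direction depends on the slide term. The other 6 of the 12 genes lay between -0.06 and 0.09 (limma, adjusted p from 0.985 to 0.999 over the 12).

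The isoforms of complex IV with restricted expression varied most. Cox7a1, the heart and skeletal muscle form of subunit 7a, was at 1.10, 2.34 and 2.52 in the controls, 1.13, 0.61 and -0.08 in the 3-month and 1.20, 1.18 and 0.76 in the 9-month cre lungs. Control replicates 2 and 3 stood above all other arrays, and control replicate 1 lay with the cre lungs. The 3-month difference was -1.43 ± 0.41 (limma, adjusted p = 0.14) and the 9-month difference -0.94 ± 0.41 (limma, adjusted p = 0.19). Cox8b, the muscle form of subunit 8, was at 1.07, 2.34 and 2.22 in the controls, 1.25, 0.71 and -0.21 at 3 months and 1.00, 1.71 and 0.54 at 9 months. Cox6a2, the muscle form of subunit 6a, was at 2.70, 3.62 and 4.20, then 3.04, 2.87 and 2.24, then 3.04, 3.61 and 2.66 in the same order. Both were also highest in control replicates 2 and 3, with overlapping groups (Cox8b at 3 months -1.29 ± 0.48, Cox6a2 -0.79 ± 0.40; limma, adjusted p = 0.21 and 0.32).

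The 3 muscle isoforms moved with markers of cardiac muscle, which in mouse lung also sheathes the large pulmonary veins. The 18 markers, none of them a respiratory chain gene, had a mean log2 level of 0.25, 1.33 and 2.10 in the controls, 0.79, -0.11 and -0.61 in the 3-month and 0.72, 0.55 and 0.31 in the 9-month cre lungs. Their summed linear level ran from 79.7 to 269.9 in the controls, from 36.4 to 106.5 at 3 months and from 76.0 to 100.2 at 9 months. Across the 9 arrays Pearson's r with this mean was 0.963 for Cox7a1, 0.908 for Cox6a2 and 0.893 for Cox8b. Spearman's rho was 0.933, 0.867 and 0.833. The exact permutation p-values of r were 5.2e-05, 0.00098 and 0.0016, and 0.00063, 0.0039 and 0.0047 after adjustment over 12 tests, r and rho for 6 genes. Here and below, the permutations ran over all 9 arrays without regard to group or slide. Their p-values therefore also take in differences between the groups and do not measure a relation within them. Without the 2 arrays farthest from the median of the markers, control replicate 3 and 3-month cre replicate 3, r was 0.910, 0.689 and 0.811. The slides held 4 and 5 arrays, too few for a correlation within each.

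The general isoforms did not move with the muscle markers in that way. Cox6a1 had r = -0.605 (exact permutation p = 0.081; rho -0.483), Cox7a2 r = 0.460 (exact permutation p = 0.21; rho 0.30) and Cox8a r = -0.701 (exact permutation p = 0.030, adjusted 0.045; rho -0.76). For Cox8a, r was -0.549 without the same 2 arrays, and the slide split described above runs in the same direction. Skeletal muscle markers, of which 7 of 12 were measured, summed to between 1.96 and 3.94 over the 9 arrays; they were highest in control replicates 3 and 2 (3.94 and 3.18) and at most 2.76 on the other 7, so the 2 arrays highest in the muscle isoforms were also highest here. Of these markers 0 passed in any comparison (2, 3 and 1 at an unadjusted p under 0.05 by limma, beside 27.3%, 18.7% and 28.7% of all genes). The part of cardiac or skeletal muscle in the levels of Cox6a2, Cox7a1 and Cox8b was not tested beyond these correlations.

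**Figure D4:**
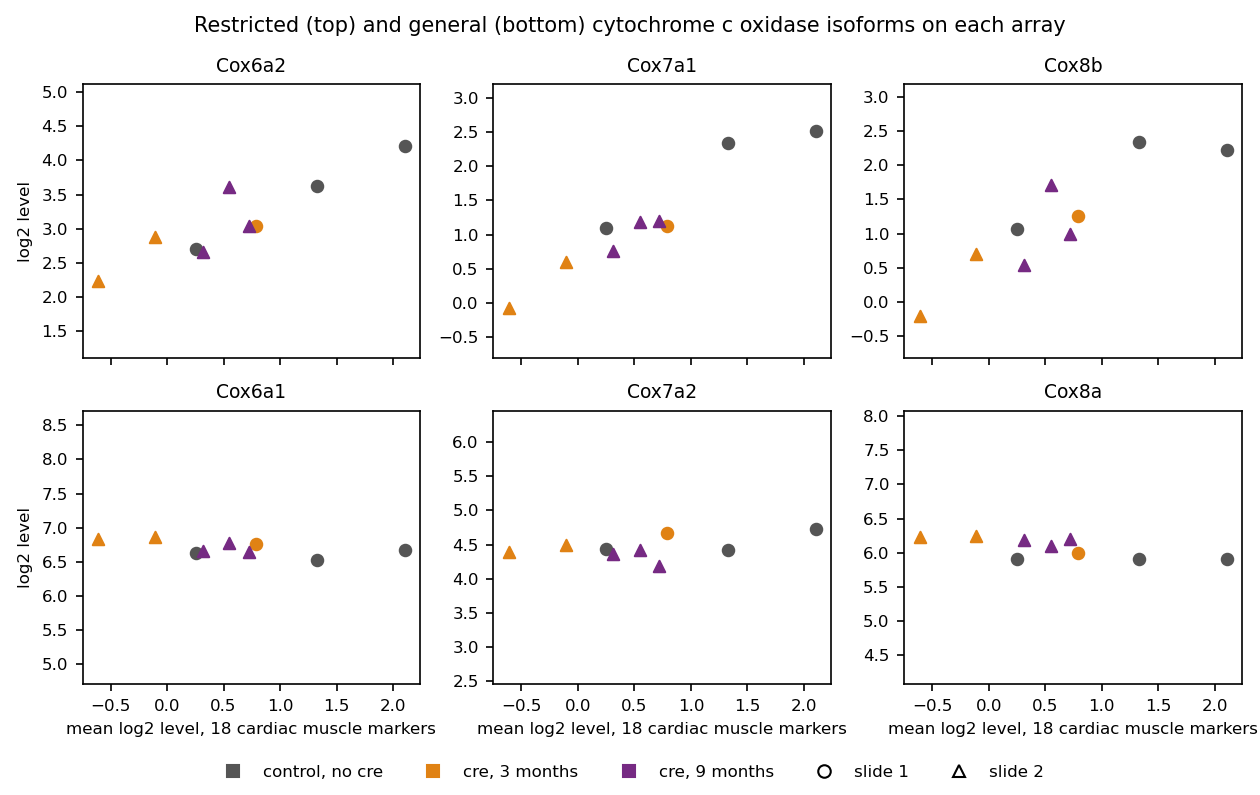
Log2 level of 3 restricted (top) and 3 general (bottom) isoforms of complex IV subunits 6a, 7a and 8 against the mean log2 level of 18 cardiac muscle markers, 1 point per array; colours are groups, circles slide 1, triangles slide 2, and all panels span 4 log2 units. The top row rises with the markers (r from 0.893 to 0.963). The bottom row varies little on this scale, with r of -0.605 for Cox6a1, 0.460 for Cox7a2 and -0.701 for Cox8a.

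The promoters of the isoform pairs are shown because they differ in CG dinucleotides, a feature of promoters of widely expressed genes. Sequences are the 250 bases upstream of the transcription start in RefSeq annotation of build GRCm38.p6, 5′ to 3′ on the strand of the gene, with each CG in capitals. Cox7a1 lies at chr7:30183921-30184170 on the plus strand and Cox7a2 at chr9:79759854-79760103 on the minus strand. Cox8b lies at chr7:140900447-140900696 and Cox8a at chr19:7217617-7217866, both on the minus strand. The muscle forms Cox7a1 and Cox8b held 4 and 1 CG, and the general forms Cox7a2 and Cox8a held 14 and 11.
Cox7a1: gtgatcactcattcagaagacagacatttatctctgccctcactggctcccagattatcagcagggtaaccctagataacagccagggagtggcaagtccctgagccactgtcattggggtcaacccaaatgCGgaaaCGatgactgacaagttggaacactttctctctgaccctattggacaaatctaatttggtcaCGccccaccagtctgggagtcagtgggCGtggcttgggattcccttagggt
Cox7a2: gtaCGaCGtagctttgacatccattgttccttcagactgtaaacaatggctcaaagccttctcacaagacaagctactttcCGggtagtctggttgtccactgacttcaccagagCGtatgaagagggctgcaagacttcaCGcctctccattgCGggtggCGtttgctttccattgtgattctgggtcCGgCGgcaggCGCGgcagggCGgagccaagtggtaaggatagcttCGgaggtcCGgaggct
Cox8b: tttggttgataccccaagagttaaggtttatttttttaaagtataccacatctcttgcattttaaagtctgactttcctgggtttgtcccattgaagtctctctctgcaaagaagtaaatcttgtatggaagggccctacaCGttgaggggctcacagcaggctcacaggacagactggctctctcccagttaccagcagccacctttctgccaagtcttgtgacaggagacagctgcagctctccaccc
Cox8a: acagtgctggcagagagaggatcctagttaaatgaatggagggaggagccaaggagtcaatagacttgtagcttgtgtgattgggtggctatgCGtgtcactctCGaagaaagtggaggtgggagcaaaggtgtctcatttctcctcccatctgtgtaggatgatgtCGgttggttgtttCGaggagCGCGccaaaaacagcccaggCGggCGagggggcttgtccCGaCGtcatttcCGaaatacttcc
The 80 promoters found for the respiratory chain genes had a median of 14.5 CG and 56.8% GC, against 6.0 CG and 52.4% GC for the 32771 other promoters. Cox6a2 was not found in the promoter table.

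The other restricted isoforms each went their own way. Cox7b2, a form of subunit 7b known from testis, was dim, with levels of -3.89, -4.03 and -5.40 in the controls, -4.82, -3.10 and -3.45 in the 3-month and -1.92, -3.16 and -2.08 in the 9-month cre lungs. The 9-month arrays lay above all controls, and the 3-month array of slide 1 lay with the controls while those of slide 2 were higher. The 9-month difference was 2.05 ± 0.57 (limma, adjusted p = 0.067). It passed the test in the authors' deposited table of processed values (1.36 ± 0.33; limma, adjusted p = 0.042) and without 9-month replicate 2 (2.44; limma, adjusted p = 0.047). Of 8 male germ cell markers 2 were measured. Their sum was 0.10 to 0.13 in the controls, 0.10 to 0.11 at 3 months and 0.11 to 0.25 at 9 months. They went opposite ways at 9 months against control, Prm2 at 1.17 ± 0.45 and Tnp1 at -0.55 ± 0.20. The 0.25 belonged to 9-month replicate 1, with Prm2 at -2.29 there and at -4.11 and -4.01 in replicates 2 and 3. In every comparison 0 passed limma's test. At an unadjusted p under 0.05 the comparisons held 2, 0 and 1 by limma, beside 27.3%, 18.7% and 28.7% of all genes. Cox6b2, another form known from testis, was at 1.17, 1.20 and 1.24 in the controls, 0.76, 1.04 and 0.92 at 3 months and 0.77, 1.07 and 0.53 at 9 months. All 6 cre lungs lay below the controls (9-month -0.41 ± 0.15; limma, adjusted p = 0.12), and without 9-month replicate 2 the value was -0.55 (limma, adjusted p = 0.042).

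Cox4i2, the isoform of subunit 4 that lung is known to express, was nearly level, at 0.23, 0.22 and 0.49 in the controls, 0.08, 0.38 and 0.30 at 3 months and 0.23, 0.29 and 0.53 at 9 months. The groups overlapped in every comparison (9-month 0.03 ± 0.14; limma, adjusted p = 0.89). Ndufa4l2, a paralogue of Ndufa4 induced by hypoxia, was at 2.02, 1.78 and 2.32 in the controls and 1.84, 1.52 and 1.98 in the 9-month cre lungs (-0.26 ± 0.17; limma, adjusted p = 0.35). Its general counterpart Ndufa4 had -0.27, and the general counterpart of Cox7b2, Cox7b, had 0.22.

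ATP synthase was represented by 17 genes, of which 0 passed limma's test. In the 3 comparisons 3, 2 and 5 reached an unadjusted p under 0.05, beside 27.3%, 18.7% and 28.7% of all genes. The catalytic core subunits Atp5a1 and Atp5b were high in the 3-month cre lungs. Atp5a1 was at 5.11, 5.12 and 5.47 in the controls, 5.46, 5.57 and 5.52 at 3 months and 5.08, 5.18 and 5.12 at 9 months. Control replicate 3 lay with the 3-month arrays, while controls 1 and 2 lay with the 9-month arrays (9-month minus 3-month -0.38 ± 0.12, limma adjusted p = 0.084, and 0.0496 without control replicate 3). Leaving out that control changed only the estimate of the spread, not the difference. The dimmer Atp5a1 probe, fitted on its own, gave -0.953 ± 0.267 in that comparison (limma, adjusted p = 0.063). Atp5b was at 5.97, 5.98 and 6.29, then 6.35, 6.38 and 6.31, then 5.98, 6.13 and 5.95, the same arrangement as Atp5a1. Atp5g2, which encodes the c subunit of the rotor ring, had the lowest 9-month value against control, -0.22 ± 0.17 (limma, adjusted p = 0.43), and -0.50 ± 0.17 against the 3-month cre lungs (limma, adjusted p = 0.10; -0.67 and 0.0423 without 9-month replicate 3). Atp5e, the small epsilon subunit, had the highest, 0.32 ± 0.13 (limma, adjusted p = 0.14), with 5.23, 5.26 and 5.29 in the controls and 5.76, 5.33 and 5.64 in the 9-month cre lungs. The 9 genes of the stalks and small membrane subunits had 9-month values between -0.14 and 0.26, 8 of them above 0, against 4 after quantile normalization.

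Different probes of one gene did not always agree. Of 19 genes with several probes kept, 12 had 9-month differences from control within 0.3 of each other and 7 did not: Cox7c, Atp5h, Sdhb, Sdha, Atp5b, Ndufv1 and Atp5g1. Agreement was not counted for 9-month minus 3-month cre lungs. There, among the 12, the brightest and the dimmer probe gave -0.385 and -0.953 for Atp5a1, -0.34 and -0.816 for Ndufa10, and -0.101 and -0.644 for Ndufb5. Others of the 12 were closer, such as Atp5o with 0.035 and 0.004 and Atp5pb with -0.28 and -0.344. The position of each probe in its transcript was not analysed here. The brightest probe stood for a gene in the tests above.

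For Sdha, Atp5b, Sdhb and Ndufv1, as for Atp5a1, Ndufa10 and Ndufb5, a dimmer probe carried a larger swing between the cre groups. The dimmer Sdha probe was at 0.34, 0.39 and 0.96 in the controls, 1.23, 1.10 and 0.73 at 3 months and -0.37, -0.17 and 0.08 at 9 months. It fell by 1.18 ± 0.21 from 3 to 9 months when every probe was fitted on its own (limma, adjusted p = 0.0323), against -0.33 ± 0.12 for the bright probe (limma, adjusted p = 0.10). The dimmest Atp5b probe was at -1.18, -1.02 and -0.58, then -0.33, -0.42 and -0.69, then -1.82, -1.49 and -1.46. It fell by 1.11 ± 0.19 in the same comparison (limma, adjusted p = 0.0307), against -0.32 ± 0.13 for the brightest (limma, adjusted p = 0.14). With each probe fitted on its own, 2 of 111 probes passed for 9-month minus 3-month cre lungs, the pair just given, both lower. With the mean of a gene's probes, 2 of 90 genes passed, Sdha at -0.75 (limma, adjusted p = 0.0332) and Atp5b at -0.70 (limma, adjusted p = 0.0435). With the brightest probe for each gene, 3.20% of all genes were called lower in this comparison. The shares of all probes or genes under the other 2 settings are not given here, so these counts are not read as a result about the chain.

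The level of the dimmest probe of a gene minus that of its brightest probe moved with the array. A lower value of this difference means that the probes lay farther apart. Over 17 genes of the chain, the difference was centred on each gene's mean. Its median was -0.11, -0.02 and 0.03 in the controls and 0.17, 0.27 and 0.15 in the 3-month cre lungs. In the 9-month cre lungs it was -0.25, -0.17 and -0.03. Over 5038 other genes it was -0.01, 0.01 and 0.03, then 0.02, 0.07 and 0.07, then -0.18, -0.04 and 0.02. Both sets were lowest in 9-month cre replicate 1, with the probes farthest apart, and high in 3-month cre replicate 2. The part of this in the values of Sdha and Atp5b was not tested.

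Cox7c and Atp5h showed another arrangement, a split by slide in 1 of their probes. The dimmer Cox7c probe was between 1.70 and 1.86 on the 4 arrays of slide 1 and between 2.21 and 2.47 on the 5 of slide 2, whereas the brighter one was between 2.88 and 3.24 and between 2.45 and 2.86. Of 3 Atp5h probes, 1 was between 4.52 and 4.79 on slide 1 and between 5.20 and 5.45 on slide 2, while the brightest was between 5.37 and 5.52 and between 5.16 and 5.44. For these genes a 9-month difference of 0.64 (Cox7c) or 0.68 (Atp5h) by 1 probe stood beside -0.30 or -0.14 by the brightest.

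**Figure D5:**
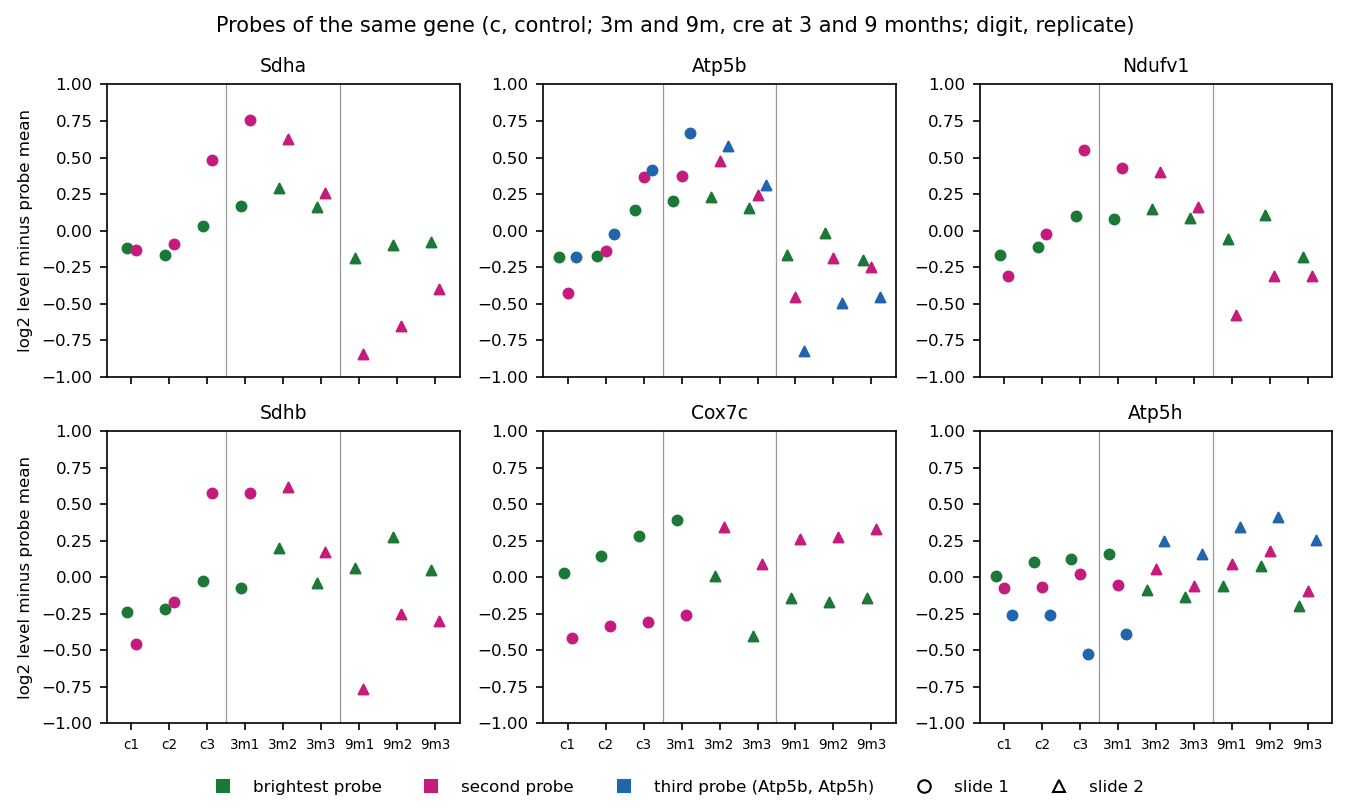
Log2 level of each probe of 6 genes on each array, minus the probe's own mean over 9 arrays; colours are probes in order of brightness, circles slide 1, triangles slide 2. For Sdha, Atp5b, Ndufv1 and Sdhb the dimmer probe is high at 3 months and low at 9 months by more than the brightest; for Cox7c and Atp5h a dimmer probe steps up at slide 2.

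Genes that work with the chain were described from 6 lists. Beside the list counts, 3.65% of all genes were called higher and 2.81% lower at 9 months against control. At 3 months these shares were 0.368% and 0.0831%, and for 9-month minus 3-month cre lungs 1.79% and 3.20%. At an unadjusted p under 0.05 in both directions the shares were 27.3%, 18.7% and 28.7% in the same order. The first held cytochrome c, cytochrome c1 and further assembly factors of complexes I to IV and ATP synthase. Of its 39 genes, 1 rose in the 9-month cre lungs and 0 fell, with a median of -0.03. This was Cox18, an inner-membrane insertase needed for complex IV, at 0.08, -0.02 and 0.10 in the controls, 0.41, 0.45 and 0.49 at 3 months and 0.41, 0.62 and 0.59 at 9 months. All cre lungs lay above the controls on both slides (9-month 0.48 ± 0.10; limma, adjusted p = 0.0322; 3-month 0.40 ± 0.10; limma, adjusted p = 0.11). In the tricarboxylic acid cycle, 1 of 18 genes fell from 3 to 9 months: Suclg2, the GTP-forming subunit of succinyl-CoA ligase, by 0.86 ± 0.20 (limma, adjusted p = 0.0478). In that comparison 16 of the 18 had values below 0, with a median of -0.35 beside -0.03 over all genes, and 9 reached an unadjusted p under 0.05. With slide as a block the median was -0.30 and 16 of 18 were again below 0. Against control 0 of 18 passed at either time, with 4 lower at an unadjusted p under 0.05 at 9 months and 0 at 3 months by limma.

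Fatty acid oxidation had 0 of 19 genes past the test in each of the 3 comparisons; by limma 2, 2 and 5 reached an unadjusted p under 0.05, and 17 of 19 had 9-month values below 0 (median -0.21), against 11 with a median of -0.02 with slide as a block. Of 16 large-subunit proteins of the mitochondrial ribosome, 1 rose at 9 months, Mrpl20 (0.38 ± 0.09; limma, adjusted p = 0.0418). In glycolysis, 2 of 18 genes rose at 9 months: Gpi1, glucose-6-phosphate isomerase (0.41 ± 0.10; limma, adjusted p = 0.0467), and Slc2a1, a glucose transporter (0.62 ± 0.15; limma, adjusted p = 0.0497). Gpi1 split by slide, between 5.13 and 5.29 on the arrays of slide 1 and between 5.47 and 5.64 on those of slide 2. Controls and 9-month cre lungs shared no slide, so slide and group cannot be told apart in its rise. At 3 months 1 of 18 rose, Aldoc, an aldolase (1.12 ± 0.18; limma, adjusted p = 0.05 as rounded), at 0.79, 0.42 and 0.77 in the controls and 1.62, 1.68 and 2.03 in the cre lungs. The glycolysis medians were 0.25 and 0.12 at 9 and 3 months. Of 15 regulators of respiratory chain genes 0 passed in any comparison, while by limma 0, 2 and 2 reached an unadjusted p under 0.05. Ppargc1a, which encodes the coactivator PGC-1α, had -0.52 ± 0.26 at 9 months, and Nrf1, nuclear respiratory factor 1, had 0.00 ± 0.11.

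Marker lists of other cells were read beside these. Against control at 9 months, 1 of 18 cardiac markers and 2 of 12 alveolar type 2 markers fell, beside 2.81% of all genes. In that comparison 2 of 12 alveolar macrophage markers rose, beside 3.65%. At 3 months 2 of 12 macrophage markers rose, beside 0.368% of all genes, and 0 cardiac markers passed. At an unadjusted p under 0.05 by limma, however, 13 of 18 cardiac markers were lower and 0 higher at 3 months (median -1.61), beside 18.7% of all genes. At 9 months 3 were lower and 2 higher (median -0.92), beside 27.3%. Markers of brown fat (7 measured of 8, Cox7a1 among them), white fat (6), smooth muscle and pericytes (12) and ciliated cells (10 of 12) had 0 past limma's test in all 3 comparisons; at an unadjusted p under 0.05 they had 1, 3 and 1, then 1, 0 and 0, then 2, 1 and 1, then 0, 1 and 1. Ucp1, which defines brown fat, was high on 2 arrays, control replicate 2 at 0.38 and 9-month cre replicate 2 at 0.72, and between -7.86 and -3.19 on the other 7; it was well above background on 7 of 9 arrays. The muscle isoforms did not follow Ucp1 throughout. Cox8b was highest of all in control replicate 2 (2.34) and highest of slide 2 in 9-month replicate 2 (1.71), but control replicate 3, where Ucp1 was lowest, had the highest Cox6a2 (4.20) and Cox7a1 (2.52). The brown fat markers Fabp3 and Dio2 also peaked in control replicate 3 (3.72 and -1.85), and the highest Cox7a1 of slide 2 was in 9-month replicate 1 (1.20). The summed level of the list, which includes Cox7a1, was 17.9 and 21.2 in control replicates 2 and 3 and from 4.51 to 10.2 on the other arrays. In control replicate 3 its largest terms were Fabp3 (3.72) and Cox7a1 (2.52), while Cidea was at -0.88 and Ucp1 at -7.86. The part of brown fat in these levels was not tested.

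Binding letters of known regulators were searched in the 250 bases upstream of 75 of the 91 genes, on both strands. The NRF1 letters (GCGCA, then any base, then GCGC) were in 14 of 75 genes (18.7%), against 4.23% of 27025 genes, and the ETS letters CCGGAAG, bound by GABP, in 14 of 75 (18.7%) against 7.83%. AAGGTCA (oestrogen-related receptors) was in 6.67% against 4.70%, GGGCGG (SP1) in 41.3% against 35.4%, AAGATGG (YY1) in 1.33% against 5.18% and TATAAA in 9.33% against 14.3%. The muscle letters of MEF2 (CTA, then any 4 bases, then TAG) were in 0 of 75 genes against 3.70%. Matches describe letters only. The NRF1, ETS and SP1 letters contain CG, of which the promoters of the chain held a median of 14.5 against 6.0. The part of CG content in these shares was not tested. NRF1 or ETS letters were in 25 genes and both in 3, Atp5h, Cox6a1 and Sdhd. The promoter of Atp5h, the first of these by name, is shown with both in capitals, the ETS letters on the opposite strand. It lies at chr11:115419920-115420169 on the minus strand of GRCm38.p6, and its 29 CG exceed those of the 4 promoters above.
Atp5h: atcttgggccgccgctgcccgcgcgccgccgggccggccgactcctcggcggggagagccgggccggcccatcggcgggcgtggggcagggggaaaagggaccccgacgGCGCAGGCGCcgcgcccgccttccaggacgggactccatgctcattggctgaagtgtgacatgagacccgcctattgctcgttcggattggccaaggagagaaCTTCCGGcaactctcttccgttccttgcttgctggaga

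The genes outside the chain whose level followed the median profile of the 90 genes most closely over the 9 arrays were Ldah (r = 0.965), Ppib (0.956), Rfxap (0.955), Thegl (0.950) and Mrps23 (0.942), of which the last is a mitochondrial ribosomal protein. These r values are the highest of all genes tested and carry no test.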

How the data were processed

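The scanner files hold spot intensity, background-subtracted and detrended within each array by Agilent Feature Extraction 10.7.3.1, per the file headers. The authors' deposited table of processed intensity, used as an alternative, is linear and was brought to nearly the same distribution on every array; the method is not stated.

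Control and irregular spots were left out, spots of a probe were averaged, and processed intensity was taken as log2 minus the array's 75th percentile, so the log2 values were computed from the deposited intensity. Probes were named through their RefSeq transcripts, and a probe was kept if all 3 arrays of some group had it well above background; the brightest probe stood for a gene. The 3 groups of 3 arrays were fitted together in limma 3.58.1 (R 4.3.3) by lmFit and eBayes, two-sided, with Benjamini-Hochberg adjustment over 16842 genes and a threshold of 0.05; the procedure was tested on simulated data. With 3 arrays per group, the number of arrays limits the precision. Nothing says how many animals were handled together, and p-values measure the spread between these lungs.

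Genes described with values were those that passed a test, the 4 Sdh genes, the restricted complex IV isoforms and their general counterparts, and the highest and lowest 9-month value in each complex. Called genes of the pathway lists and the 5 genes most like the median profile were added. Other genes given with values were chosen after their values were seen. Of the genes that the naming rule takes, 1 is not reported here and is in no count of respiratory chain genes. The genes and lists were chosen with earlier results of these data known. Alternatives covered background correction, scaling, deposited values, the filter on dim probes, the choice of probe, slide, replicate number, sex, the groups fitted and leaving out each replicate. A percentile over all spots and fits within a slide were added after seeing the data.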

Additional observations from a re-analysis of the deposited data

How the results depend on the processing

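A tally of the alternatives covered 26 genes: the Sdh genes, the restricted complex IV isoforms, their general counterparts, and the highest and lowest 9-month value in each complex. In 1690 comparisons of a value with its value under an alternative, 1682 kept their side of the threshold. Those 1682 had no sign change beyond the standard error. A further 7 newly passed and 1 changed sign. The sign change was Uqcrq at 3 months, -0.11 in the deposited values. Because 0 of the 26 genes passed as reported, a lost call could not occur, and the tally does not measure changes in size. With slide as a block, the 9-month difference of Cox8a went from 0.25 to 0.01 and that of Cox7b2 from 2.05 to 0.50. Both were counted as kept. Other genes given with values are not in this tally. Among them Cox7c turned from -0.30 to 0.28 at 9 months with slide as a block. The median of the respiratory chain genes against control moved with scaling, to -0.061 at 9 months and 0.005 at 3 months after quantile normalization and to -0.039 and -0.018 in the deposited values. The count of genes lower at 9 than at 3 months was 0 as reported, beside 3.20% of all genes. It was 2 with the mean of probes or with each probe on its own, and 0 to 2 when 1 replicate was left out. Those were 2 without control replicate 3 (Ndufaf3 and Atp5a1) and 1 without 9-month replicate 3 (Atp5g2). Without control replicate 3 the differences of Ndufaf3 and Atp5a1 stayed at -0.707 and -0.385, so only the estimate of the spread changed. With the deposited values 1 gene was higher at 9 months than in controls (Cox7b2) and 1 higher than at 3 months (Ndufb7). Leaving out 1 replicate gave 0 to 2 genes higher and 0 to 1 lower than control at 9 months, all from leaving out 9-month replicate 2 (Cox7b2 and Atp5e higher, Cox6b2 lower). The cause was not tested. With the replicate block the count lower at 9 than at 3 months was 0, and 4 of all genes were lower against 539. Same-numbered arrays correlated at -0.24 to 0.05 in their deviations from group means and others at -0.12 to 0.26, so the numbers are only names. The number of arrays, 3 per group, limits what can be called.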
